A study of Mus musculus with 19 samples.

Results

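The 7 genes described here set how a liver cell senses sterol and keeps its LDL receptors: Srebf1 and Srebf2, which encode the sterol regulatory element-binding proteins (SREBPs), their escort Scap, the retention proteins Insig1 and Insig2, the sterol carrier Stard4 and the ubiquitin ligase Mylip. They were taken by symbol from the 55836 genes listed in the deposited count table, and all 7 were found and were among the 13597 genes tested. Bulk RNA-seq had been made from livers of 19 male C57BL/6 mice, 1 library per mouse, aged 8 weeks when the 8 weeks of diet and gavage began. The groups were control diet (CD, 10 kcal% fat) with vehicle (CD + Veh, n = 4), the control diet with polyethylene particles (CD + PE, n = 5), the MASH diet with vehicle (MD + Veh, n = 5) and the MASH diet with polyethylene particles (MD + PE, n = 5). The MASH diet (MD), fed to model steatohepatitis, held cholesterol at 2%, fat at 40 kcal% and fructose at 20 kcal%, so sterol was itself part of the food. PE was gavaged at 2 mg per mouse and day, and the labels name no engineered allele in any group. Mice of a group were housed together, so group and cage cannot be told apart.

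SREBPs are made as membrane proteins of the endoplasmic reticulum. When sterol is scarce, the sterol sensor SCAP carries them to the Golgi, where proteases release the part that enters the nucleus and switches on genes of lipid synthesis and uptake; when sterol is plentiful, INSIG proteins hold SCAP and its cargo back. SREBP2, from Srebf2, acts mainly on cholesterol synthesis, and SREBP1c, the main liver product of Srebf1, on fatty acid synthesis, while LXR, a nuclear receptor that binds oxysterols, turns on Srebf1 and Mylip. Messenger RNA levels, the quantity measured here, do not show how much SREBP was cleaved.

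Of 11 annotated RefSeq start sites of 6 of the genes, windows of 250 bases before each start were searched on both strands for 5 motifs: the sterol regulatory element TCACNCCA, the E-box CACGTG, the CCAAT box CCAAT, the nuclear receptor half-site AGGTCA and the GC box GGGCGG. The sterol regulatory element was matched in the window of Srebf2 and in none of the other 10, against 3.65% of 32536 distinct promoter windows. The E-box was matched in Insig1 and at 1 start of Scap, against 6.04% of all windows, and the half-site in Insig1, against 14.0%. CCAAT was found in 33.8% and the GC box in 33.0% of all windows, so that matches to them are common. The windows shown are those of 2 genes that were lower in MD + PE than in either CD group (Srebf2 and Insig1) and of 2 that were higher there (Insig2 and Mylip). They run 5′ to 3′ on the gene's strand, up to the first annotated exon of the gene. For Insig2, the window is that of the start farthest upstream of 3. Scap, also lower in MD + PE, is not shown, and Stard4, lower there too, was not searched. The bases are from the RefSeq promoter table (built on GRCm38.p6), located by exact match in GRCm39 at chr15:82031220-82031381 (+) for Srebf2, chr5:28276160-28276314 (+) for Insig1, chr1:121260401-121260568 (-) for Insig2 and chr13:45542968-45543214 (+) for Mylip. Capitals mark matches to the first 4 motifs, which in Insig1 include a half-site that runs into the E-box as AGGTCACGTG. A match says only that the letters are there.
Srebf2: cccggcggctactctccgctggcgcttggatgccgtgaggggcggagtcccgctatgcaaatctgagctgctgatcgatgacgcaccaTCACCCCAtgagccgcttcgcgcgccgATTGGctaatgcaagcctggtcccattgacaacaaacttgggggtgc
Insig1: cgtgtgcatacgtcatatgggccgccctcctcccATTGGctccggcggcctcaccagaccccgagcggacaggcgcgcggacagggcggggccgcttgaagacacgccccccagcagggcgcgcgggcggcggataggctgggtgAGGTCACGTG
Insig2: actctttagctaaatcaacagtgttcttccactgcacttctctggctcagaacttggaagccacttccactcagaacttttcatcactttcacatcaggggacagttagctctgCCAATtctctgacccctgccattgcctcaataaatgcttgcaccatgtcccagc
Mylip: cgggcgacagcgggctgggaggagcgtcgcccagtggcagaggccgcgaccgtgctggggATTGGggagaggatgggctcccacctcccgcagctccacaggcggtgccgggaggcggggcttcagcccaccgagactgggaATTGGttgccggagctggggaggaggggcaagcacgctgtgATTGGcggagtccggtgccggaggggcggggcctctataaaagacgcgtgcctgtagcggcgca

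Counts assigned to genes came to 10398820 to 15456729 per library, lower in every PE library (at most 12757617) than in every vehicle library (at least 13406037), so that 1 CPM, the edgeR unit of counts relative to library size with TMM scaling, stood for 9.96 to 16.1 counts. Library numbers ran in 1 order with vehicle first, and 1 ribosomal pseudogene, Rps6-ps4, had 1088 to 1690 counts in the first 7 libraries (all CD + Veh and replicates 1 to 3 of MD + Veh) and 0 in the other 12. On CD this library division and PE cannot be told apart, and a fit with the division as covariate separates them only through replicates 4 and 5 of MD + Veh. Sums of markers set 5 libraries apart. Replicate 1 of MD + Veh held skeletal muscle markers at 2193 CPM and replicate 1 of CD + PE at 310.1 CPM, beside at most 141 CPM elsewhere, and replicate 2 of MD + PE held duct epithelium markers at 114 CPM beside at most 20.4 CPM elsewhere. Replicate 2 of CD + PE held Kupffer cell markers at 614 CPM, beside at most 263 CPM elsewhere, and replicate 4 of MD + PE held lipid-associated macrophage markers at 192 CPM, beside at most 80.1 CPM elsewhere. Summed hepatocyte markers, 7 of 7 detected, spanned 64929 to 92609 CPM on CD and 46635 to 64198 CPM on MD. A clock score, the mean log2 CPM of 5 genes of the Bmal1 arm less that of 8 genes of the Dbp and Per arm, ran from -4.49 to -3.23 in CD + Veh and from -3.14 to 0.013 in CD + PE. On MD it ran from -2.31 to -0.57 with vehicle and from -2.21 to -0.67 with PE.

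Genes were compared by edgeR's quasi-likelihood F test over all 19 libraries, and a gene was called different at a Benjamini-Hochberg adjusted p below 0.05, taken over all 13597 genes, and a log2 fold change of at least 0.38 in size. Nothing in the sources ties mice across groups, and p-values measure the spread between mice housed by group. Called lower in MD + Veh versus CD + Veh were the hepatocyte markers Alb (-0.48 on the log2 scale) and Apoa1 (-0.42). In MD + PE versus CD + PE, Alb (-0.62), Apoa1 (-0.48) and Ttr (-0.52) were called lower. The markers Asgr1, Cps1, Serpina1c and Tat were called in neither. In MD + PE versus CD + Veh, Alb (-0.58), Apoa1 (-0.65), Ttr (-0.64) and Cps1 (-0.57) were called lower, and Asgr1, Serpina1c and Tat were not called. Whether the differences described below go with these was not tested.

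**Figure D1:**
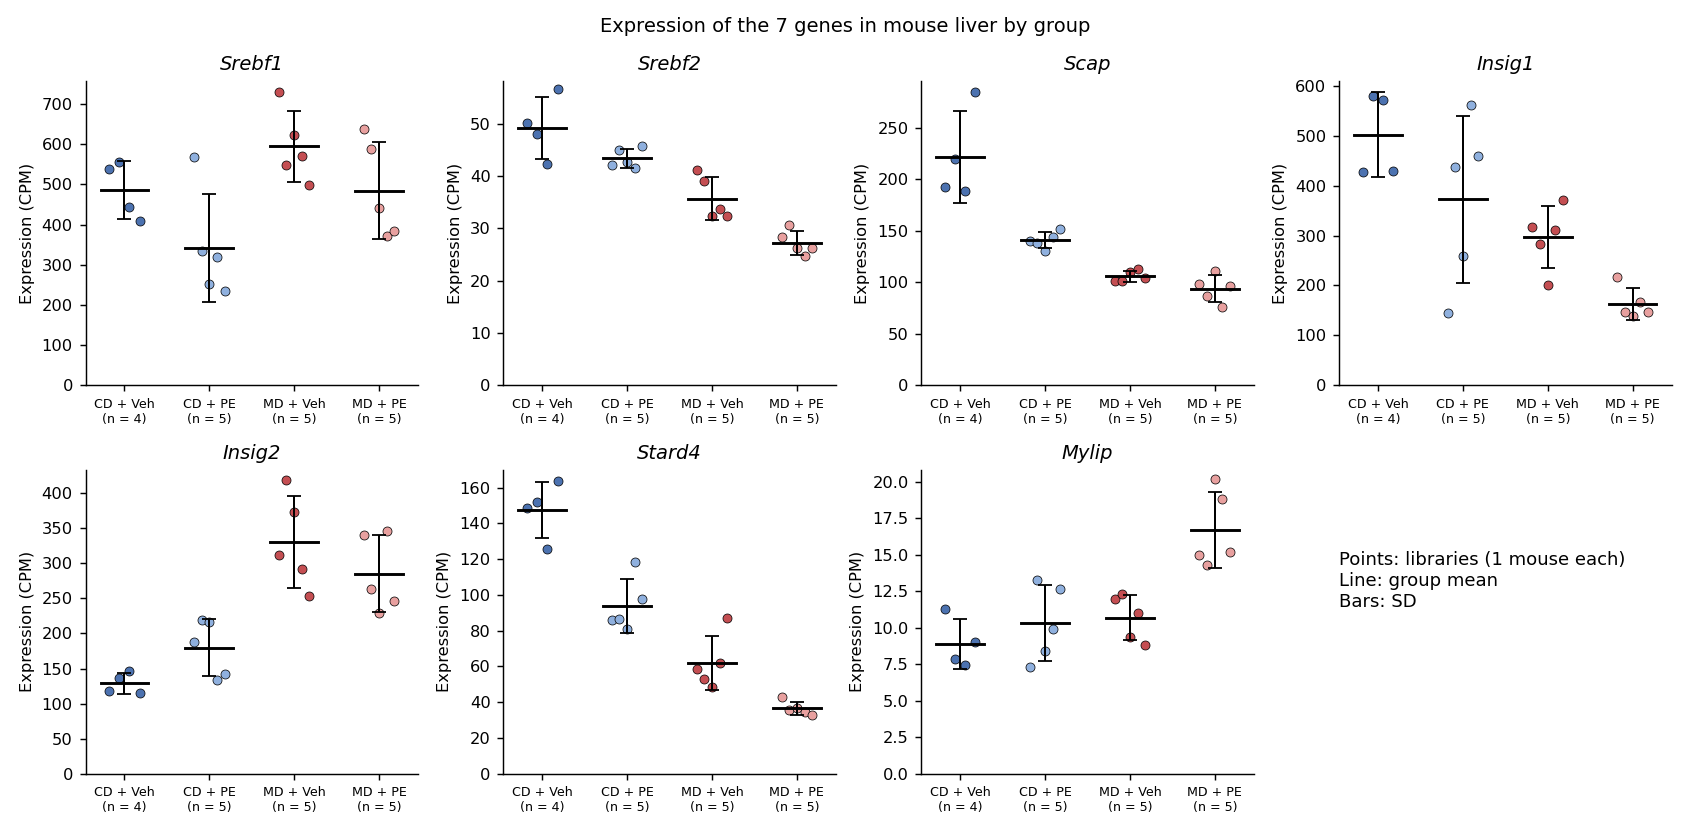
Expression in CPM (vertical axis, from 0) of each of the 7 genes in the 19 liver libraries, by group; points are libraries, horizontal lines group means and bars SD. Mean Srebf2, Scap and Stard4 step down from CD + Veh to MD + PE, Insig2 stands higher in both MD groups, and the 5 MD + PE livers hold Mylip between 14.3 and 20.2 CPM, above every other liver.

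Srebf2, which encodes SREBP2 (chr15:82031382-82093201, +, GRCm39, with Mir33 inside the gene), was lower on MD than on CD, and lower again in MD + PE. Srebf2 stood at 50.2, 48.1, 42.3 and 56.6 CPM in the CD + Veh livers and at 42.1, 45.1, 42.7, 41.6 and 45.7 CPM in the CD + PE livers, in replicate order. The MD livers held 41.2, 39.02, 32.4, 33.7 and 32.3 CPM with vehicle and 28.3, 30.6, 26.3, 24.8 and 26.3 CPM with PE. All 10 MD livers were below all 9 CD livers, and all 5 MD + PE livers were below all 5 MD + Veh livers, whereas the CD groups overlapped. The group means were 49.3 ± 5.93 (SD, n = 4), 43.4 ± 1.86 (n = 5), 35.7 ± 4.11 (n = 5) and 27.2 ± 2.24 CPM (n = 5), in the order CD + Veh, CD + PE, MD + Veh, MD + PE. By edgeR, MD + Veh differed from CD + Veh by -0.46 on the log2 scale (SE 0.0904, adjusted p = 0.00173). MD + PE differed from CD + PE by -0.67 (SE 0.0872, adjusted p = 5.78e-05). The PE difference on MD was -0.39 (SE 0.0869, adjusted p = 0.0290), which lies just past the minimum change. On CD it was -0.18 (95% interval -0.38 to 0.010, adjusted p = 0.309). MD + PE was 1.81-fold lower than CD + Veh (-0.86, SE 0.0911, adjusted p = 1.88e-06). The call for PE on MD was lost in 12 of 33 alternatives, in which the difference lay between -0.28 and -0.38 with adjusted p up to 0.451. In 3 of them (RLE normalization, thinning to equal depth and leaving out replicate 4 of CD + Veh) the adjusted p stayed below 0.05 and the difference, from -0.371 to -0.380, fell short of the minimum change only. Replicates 1 and 2 of MD + Veh, 3, 4 and 5 of MD + PE and 4 of CD + Veh each removed it when left out. The call was also lost with the library division as covariate and without the 5 libraries with high marker sums. Replicate 4 of MD + PE, the library with the macrophage markers, was the lowest of all livers in Srebf2, and without it the difference was -0.35 (adjusted p = 0.0868). That library also had the lowest hepatocyte marker sum of all livers, 46635 CPM, and held stellate cell and fibrosis markers at 383 CPM. Without replicate 4 of CD + Veh, the highest library for Srebf2, the diet difference with vehicle was -0.378, short of the minimum change, and with the clock score as covariate it was -0.51 with an adjusted p = 0.0580.

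Srebf1 (chr11:60089913-60113407, -), which encodes SREBP1a and SREBP1c from separate starts that gene counts do not tell apart, was not called in any comparison. Srebf1 stood at 538, 556, 443 and 408 CPM in the CD + Veh livers and at 569, 335, 251, 318 and 234 CPM in the CD + PE livers, in replicate order. The MD livers held 732, 548, 624, 572 and 499 CPM with vehicle and 637, 588, 442, 372 and 384 CPM with PE. In CD + PE, replicate 1 was the highest of the CD livers and the other 4 were below every CD + Veh liver. The log2 fold change in CD + PE versus CD + Veh was -0.51 (SE 0.218, 95% interval -0.97 to -0.046, adjusted p = 0.218), and without that replicate, the one with muscle markers at 310.1 CPM, it was -0.76 with an adjusted p = 0.0253. Without all 5 libraries with high marker sums it was -0.86 with an adjusted p = 0.0135. MD + PE versus CD + PE gave 0.51 (adjusted p = 0.153), and 0.77 (adjusted p = 0.0111) without the same library. The other differences were 0.29 for MD under vehicle (95% interval -0.18 to 0.76, adjusted p = 0.409) and -0.30 for PE on MD (-0.74 to 0.14, adjusted p = 0.535). Between MD + PE and CD + Veh it was -0.0046 (-0.47 to 0.46, adjusted p = 0.991). Replicate 1 of MD + Veh, the library with muscle markers at 2193 CPM, was the highest of all livers in Srebf1. Without it and replicate 2 of MD + PE, the difference for MD under vehicle was 0.22 (adjusted p = 0.579).

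The ratio of the 2 SREBP genes within a library needs no scaling between libraries. Counts of Srebf1 were 7.20 to 11.6 times those of Srebf2 in CD + Veh and 5.11 to 13.5 times in CD + PE. With MD they were 14.0 to 19.3 times as many under vehicle and 14.6 to 22.5 times under PE. Every MD liver had a higher ratio than every CD liver, which is a description with no test.

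Scap, the sterol sensor that escorts SREBPs (chr9:110158229-110214024, +), was lower with PE on CD and lower with MD. Scap stood at 193, 219.8, 188 and 285 CPM in the CD + Veh livers and at 140.0, 138, 131, 144 and 152 CPM in the CD + PE livers, in replicate order. MD livers were at 101, 101, 109.6, 113 and 104 CPM with vehicle and 97.8, 86.7, 111, 75.9 and 96.6 CPM with PE. All CD + PE livers were below all CD + Veh livers, all MD livers were below all CD livers, and the MD groups overlapped. Mean levels were 221 ± 44.6 (SD, n = 4), 141 ± 7.82 (n = 5), 106 ± 5.20 (n = 5) and 93.6 ± 13.1 CPM (n = 5) in the same order. The log2 fold change was -0.65 (SE 0.110, adjusted p = 0.00286) for PE on CD. For MD it was -1.07 (SE 0.110, adjusted p = 2.99e-06) under vehicle and -0.59 (SE 0.105, adjusted p = 0.00161) under PE. MD + PE was 2.37-fold lower than CD + Veh (-1.24, SE 0.110, adjusted p = 1.87e-07). For PE on MD it was -0.18 (95% interval -0.40 to 0.048, adjusted p = 0.450). With the library division as covariate the PE difference on CD was -0.71 with an adjusted p = 0.111, and the call in MD + PE versus CD + PE was lost in 1 of 33 alternatives, when the 5 libraries with high marker sums were left out together (-0.45, adjusted p = 0.0674). Replicate 4 of MD + PE was the lowest of all livers in Scap as well, and without it alone that difference was -0.51 (adjusted p = 0.00596). The calls in MD + Veh and in MD + PE versus CD + Veh held in all 33 alternatives.

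Stard4, a soluble carrier that moves cholesterol between membranes (chr18:33332197-33346942, -), was lower in every one of the 5 comparisons between groups. Stard4 stood at 149, 152, 126 and 163 CPM in the CD + Veh livers and at 86.0, 86.6, 80.9, 118 and 97.4 CPM in the CD + PE livers, in replicate order. In the MD livers it was at 58.3, 53.2, 48.6, 61.9 and 87.1 CPM with vehicle and 42.8, 35.5, 36.9, 34.5 and 32.7 CPM with PE. The groups did not overlap in any of these comparisons, although replicate 5 of MD + Veh, at 87.1 CPM, stood above 3 CD + PE livers that it was not compared with. Means were 147 ± 15.8 (SD, n = 4), 93.9 ± 15.03 (n = 5), 61.8 ± 15.01 (n = 5) and 36.5 ± 3.86 CPM (n = 5). The log2 fold change with PE was -0.65 (SE 0.142, adjusted p = 0.0141) on CD and -0.76 (SE 0.138, adjusted p = 0.00831) on MD. MD went with -1.25 (SE 0.142, adjusted p = 9.69e-06) under vehicle and -1.36 (SE 0.139, adjusted p = 2.90e-06) under PE. MD + PE was 4.04-fold lower than CD + Veh (log2 fold change -2.01, SE 0.145, adjusted p = 1.26e-08). On CD the PE difference was -0.43 (adjusted p = 0.169) with the clock score as covariate, -0.58 (adjusted p = 0.0594) without replicate 4 of CD + Veh and -1.13 (adjusted p = 0.0184) with the library division. Without the 5 libraries with high marker sums it was -0.58 (adjusted p = 0.0963) on CD and -0.73 (adjusted p = 0.130) on MD, neither called. The call on MD held in the other 32 alternatives, and those of the other 3 comparisons in all 33.

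**Figure D2:**
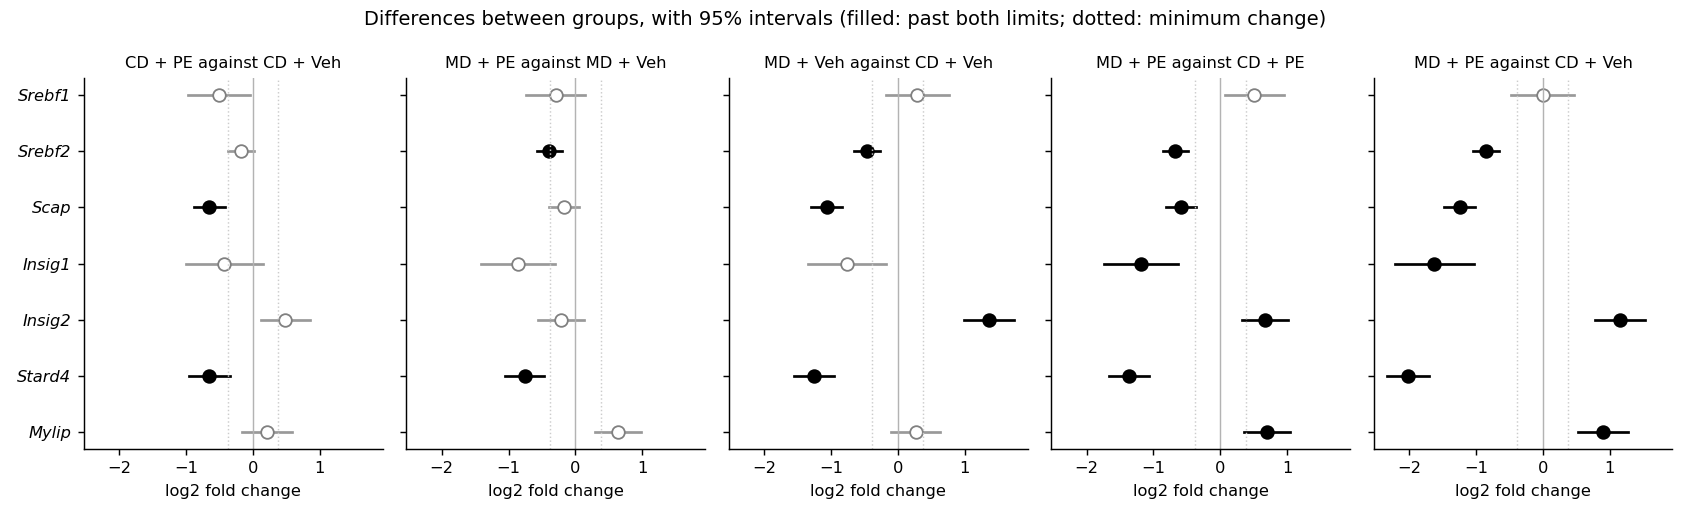
Log2 fold changes (horizontal axis) with 95% intervals for the 7 genes in 5 comparisons, from the edgeR fit; filled points pass both limits and dotted lines mark the minimum change of 0.38. Stard4 is filled in all 5 panels, from -0.65 to -2.01, while Srebf1 is filled in none.

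Insig1 and Insig2 encode the proteins that keep the SCAP and SREBP complex in the endoplasmic reticulum, and Insig1 is itself a gene that SREBPs switch on. Their messenger RNAs stood apart in opposite directions. Insig1 (chr5:28276315-28283668, +) was lower in MD + PE than in either CD group, and Insig2 (chr1:121181760-121260400, -) was higher on MD than on CD.

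Insig1 stood at 428, 579.7, 572 and 429 CPM in the CD + Veh livers and at 145, 437, 259.9, 562 and 460.3 CPM in the CD + PE livers, in replicate order. MD livers were at 318, 283, 201, 311 and 371 CPM with vehicle and 218, 147, 139, 167 and 147 CPM with PE. The CD + PE livers were scattered over the range of almost all other livers, with replicate 1 the lowest of them, and all MD + Veh livers were below all CD + Veh livers. Means were 502 ± 85.2 (SD, n = 4), 373 ± 167 (n = 5), 297 ± 62.4 (n = 5) and 163 ± 32.02 CPM (n = 5). Insig1 was 3.07-fold lower in MD + PE than in CD + Veh (log2 fold change -1.62, SE 0.274, adjusted p = 0.000304) and 2.28-fold lower than in CD + PE (-1.19, SE 0.261, adjusted p = 0.00840), where the groups overlapped through that replicate. The single steps did not pass the adjusted limit, at -0.43 for PE on CD (95% interval -1.01 to 0.15, adjusted p = 0.448), -0.76 for MD with vehicle (-1.34 to -0.18, adjusted p = 0.0677) and -0.86 for PE on MD (-1.41 to -0.31, adjusted p = 0.0989). Without replicate 1 of CD + PE, whose spread enters the shared fit, the last 2 passed, with adjusted p = 0.0156 and adjusted p = 0.0274.

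Insig2 stood at 118, 136, 146 and 115 CPM in the CD + Veh livers and at 188, 219, 217, 133 and 142 CPM in the CD + PE livers, in replicate order. In the MD livers it was at 312, 418, 373, 292 and 253 CPM with vehicle and 341, 263, 229, 346 and 246 CPM with PE. All 10 MD livers were above all 9 CD livers, and PE and vehicle livers overlapped on both diets. Means were 129 ± 14.9 (SD, n = 4), 180 ± 40.4 (n = 5), 330 ± 65.6 (n = 5) and 285 ± 54.8 CPM (n = 5). Insig2 was 2.56-fold higher in MD + Veh than in CD + Veh (log2 fold change 1.36, SE 0.176, adjusted p = 4.49e-05), and 1.58-fold higher in MD + PE than in CD + PE (0.66, SE 0.162, adjusted p = 0.0169). MD + PE was 2.21-fold higher than CD + Veh (1.15, SE 0.175, adjusted p = 0.000114). PE went with 0.48 on CD (95% interval 0.11 to 0.85, adjusted p = 0.131) and with -0.21 on MD (-0.55 to 0.13, adjusted p = 0.575), neither called. The clock score was lower in every CD + Veh liver than in any other liver, and with it as covariate the difference between MD + Veh and CD + Veh was 0.69 (adjusted p = 0.0390). The difference between MD + PE and CD + Veh was then 0.55 (adjusted p = 0.0424), and that for PE on CD 0.025 (adjusted p = 0.953). The call in MD + PE versus CD + PE was lost with the endothelial marker level as covariate (0.60, adjusted p = 0.0632) and without the 5 libraries with high marker sums (0.75, adjusted p = 0.0562). Replicate 2 of CD + PE, the library with the Kupffer cell markers, was the highest of the CD livers in Insig2, and without it alone that difference was 0.74 (adjusted p = 0.00848). Insig2 has several annotated start sites, and gene counts do not tell their transcripts apart.

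Set within each library, Insig1 counts were 3.63 to 4.27 times those of Insig2 in CD + Veh and 0.538 to 1.46 times in MD + Veh. MD + PE livers lay in a narrow band from 0.481 to 0.639, whereas CD + PE livers ran from 0.773 to 4.21. Insig2 thus had more counts than Insig1 in all 5 MD + PE livers and in none of the 4 CD + Veh livers.

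**Figure D3:**
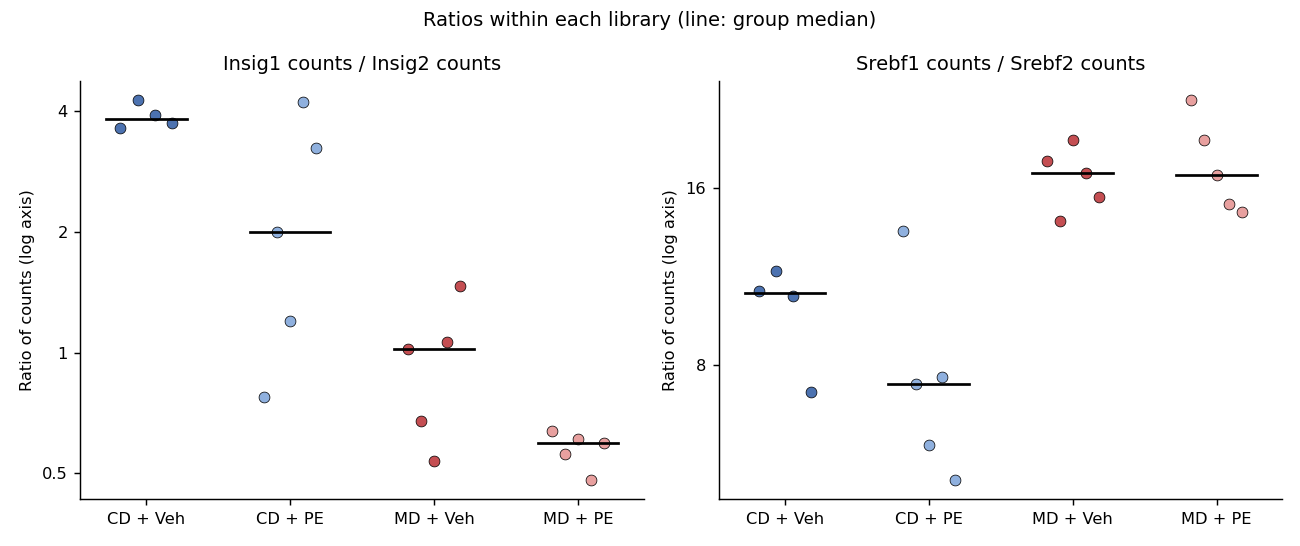
Ratio of Insig1 to Insig2 counts (left) and of Srebf1 to Srebf2 counts (right) in each library by group, on log axes, with lines at group medians. MD + PE livers lie between 0.481 and 0.639 on the left, and all MD livers lie above all CD livers on the right.

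Mylip, the E3 ubiquitin ligase that sends the LDL receptor to degradation (chr13:45543215-45565501, +), was the least abundant of the 7 genes in CPM and was higher in MD + PE than in either CD group. Mylip stood at 11.3, 7.88, 7.45 and 9.03 CPM in the CD + Veh livers and at 7.31, 13.2, 8.39, 9.94 and 12.6 CPM in the CD + PE livers, in replicate order. The MD values were 12.0, 12.3, 9.34, 11.0 and 8.81 CPM with vehicle and 14.95, 14.3, 20.2, 18.8 and 15.2 CPM with PE. All 5 MD + PE livers were above the other 14 livers, and the other 3 groups overlapped with each other. Means were 8.90 ± 1.70 (SD, n = 4), 10.3 ± 2.59 (n = 5), 10.7 ± 1.56 (n = 5) and 16.7 ± 2.62 CPM (n = 5). Mylip was 1.87-fold higher in MD + PE than in CD + Veh (log2 fold change 0.90, SE 0.175, adjusted p = 0.00103) and 1.62-fold higher than in CD + PE (0.70, SE 0.164, adjusted p = 0.0138). Against MD + Veh the difference was 0.64 (SE 0.162, 95% interval 0.30 to 0.99) with an adjusted p = 0.0511, just short of the limit, which it passed in 7 of 33 alternatives, DESeq2 among them (adjusted p = 0.00750). Replicate 2 of CD + PE was the highest of the CD livers in Mylip too, and without it MD + PE was 0.81 higher than CD + PE on the log2 scale (adjusted p = 0.00473). Neither PE on CD (0.21, 95% interval -0.17 to 0.58, adjusted p = 0.609) nor MD with vehicle (0.26, -0.11 to 0.63, adjusted p = 0.337) was called.

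The genes most like Mylip over the 19 libraries were the endothelial genes Ptprb (Pearson r of log2 CPM 0.914) and Clec14a (0.864), and endothelial markers were therefore set beside it. All 5 markers (Stab2, Clec4g, Pecam1, Kdr and Lyve1) were detected, with a summed level of 109 to 129 CPM in CD + Veh and 106 to 150.3 CPM in CD + PE. MD livers summed to 102 to 142 CPM with vehicle and 119 to 164 CPM with PE. Among them Stab2 was called higher in MD + PE versus CD + Veh (0.51, adjusted p = 0.00974), and none was called between MD + PE and MD + Veh by edgeR. The 2 MD + PE livers with the highest Mylip also had the 2 highest marker sums of all 19 livers. The mean log2 CPM of the 5 markers, not their sum, was used as a covariate, an alternative added with the data in view. Mylip was then 0.62 higher in MD + PE than in CD + Veh on the log2 scale (adjusted p = 0.00108). It was 0.43 higher than in CD + PE (adjusted p = 0.0298), and versus MD + Veh the difference was 0.38 (adjusted p = 0.0945). With the clock score as covariate the difference from CD + Veh was 0.78 with an adjusted p = 0.0526. In bulk liver, fewer cells of a type and less RNA per cell cannot be told apart.

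**Figure D4:**
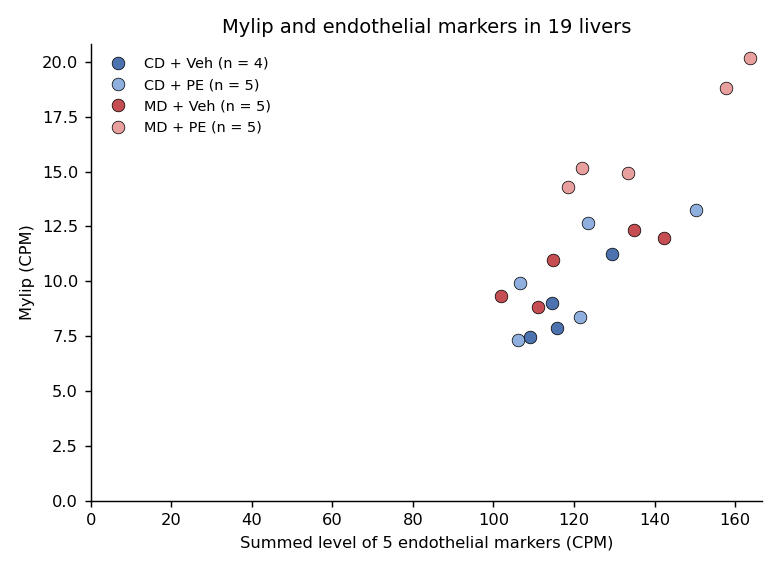
Mylip (vertical axis, CPM) against the summed level of 5 endothelial markers (horizontal axis, CPM) in 19 livers, coloured by group; both axes start at 0. The MD + PE livers lie above the others in Mylip. In the markers, 2 of them are also highest, at 158 and 164 CPM, where no liver of another group lies (at most 150.3 CPM).

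Counted by comparison, 2 of the 7 genes (Scap and Stard4, both lower) were called in CD + PE versus CD + Veh, where 2.92% of all 13597 genes were. In MD + PE versus MD + Veh, 2 genes (Srebf2 and Stard4, both lower) were called against a background of 1.08%. MD + Veh and CD + Veh differed in 4 of them, Insig2 higher and Srebf2, Scap and Stard4 lower on MD, beside 10.4% of all genes. MD + PE versus CD + PE gave 6 calls, Insig2 and Mylip higher and Srebf2, Scap, Insig1 and Stard4 lower, beside 4.61% of all genes. The same 6 genes were called in the same directions in MD + PE versus CD + Veh, where 14.6% of all genes were called; these comparisons share the MD + PE libraries. The median log2 fold change of the 7 genes was -0.43, -0.30, -0.46, -0.59 and -0.86 in the order given here, against medians of all tested genes between -0.019 and 0.0064.

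Whether PE went with a different change on MD than on CD was asked with the interaction of PE and diet. By edgeR none of the 7 genes was called, with 0.00735% of all genes (1 gene) called, and none was called by DESeq2. At an unadjusted p below 0.05 there were 2 genes, Scap (interaction 0.48, SE 0.152, adjusted p = 0.309) and Insig2 (-0.69, SE 0.236, adjusted p = 0.365). The 95% intervals were 0.15 to 0.80 for Scap, -1.20 to -0.19 for Insig2 and -0.53 to 0.31 for Stard4, so that the PE difference in Stard4 may have differed between diets by up to about those bounds.

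Levels of different genes can be set side by side only per length, here CPM per kilobase of the canonical GENCODE transcript. In CD + Veh the order was Insig1 (183 ± 31.1, SD, n = 4), Srebf1 (112 ± 16.6), Scap (52.2 ± 10.5), Insig2 (46.2 ± 5.33), Stard4 (27.8 ± 2.98), Srebf2 (9.72 ± 1.17) and Mylip (2.90 ± 0.556), and only the neighbours Scap and Insig2 overlapped. In MD + PE it was Srebf1 (112 ± 27.95, n = 5), Insig2 (102 ± 19.7), Insig1 (59.7 ± 11.7), Scap (22.1 ± 3.09), Stard4 (6.88 ± 0.727), Mylip (5.44 ± 0.856) and Srebf2 (5.37 ± 0.441). There the libraries of Srebf1 and Insig2 overlapped, and so did those of Stard4 and Mylip and those of Mylip and Srebf2. Insig1, at the top in CD + Veh, lay below Srebf1 and Insig2 here, and Srebf2 lay level with Mylip.

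Among 9386 other genes that averaged 5 CPM or more, those whose log2 CPM ran most like each member over the 19 libraries included enzymes of lipid synthesis. They were Ugt1a5 (r = 0.959) and Pmvk, a kinase of the mevalonate pathway (0.954), for Srebf2, and Acp3 (0.950) and Acss2, which makes acetyl-CoA (0.948), for Scap. For Insig1 the gene reported is Mvd, another mevalonate enzyme (0.904), and for Stard4 they were 1810008I18Rik (0.978) and Echdc1 (0.977). Insig2 ran with Dennd2b (0.964) and the glutathione transferase Gsta2 (0.940), and Srebf1 with Med16 (0.870) and D5Ertd579e (0.835). All these points share libraries, groups and depth, and the values are given as a description.

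Enzymes that SREBPs switch on were called lower in every comparison between groups, though not every enzyme in each. Of 19 cholesterol synthesis enzymes, 9 were called for PE on CD, 18 for MD under vehicle and 10 for PE on MD, all lower. For MD under PE 18 were called and in MD + PE versus CD + Veh 19, again all lower. In that order, these were 47.4%, 94.7%, 52.6%, 94.7% and 100% of the list. Of all genes, 2.92%, 10.4%, 1.08%, 4.61% and 14.6% were called. Their median log2 fold changes were -0.74, -1.81, -0.83, -1.97 and -2.87. Sqle, squalene epoxidase, had a mean of 96.3 ± 29.7 CPM in CD + Veh (SD, n = 4) and 35.4 ± 20.1 CPM in CD + PE (n = 5). MD + Veh livers were at 1.89 ± 0.849 CPM and MD + PE livers at 0.765 ± 0.587 CPM (n = 5 each). It was called for PE on CD (-1.45, SE 0.348, adjusted p = 0.0251) and for MD under vehicle (-5.65, SE 0.435, adjusted p = 1.55e-07), but not for PE on MD (-1.26, adjusted p = 0.299). Lss, which closes the sterol rings, was -1.26 (adjusted p = 0.00301) with PE on CD, and Idi1 was -3.34 (adjusted p = 2.61e-07) with MD under vehicle. On MD, PE went with -1.35 (adjusted p = 0.0224) in Fdps and -1.26 (adjusted p = 0.00158) in Nsdhl, both steps of the pathway.

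Of 14 fatty acid synthesis genes, 11, 11, 12, 12 and 14 were called lower in the same order of comparisons, and none higher. These were 78.6%, 78.6%, 85.7%, 85.7% and 100% of the list, beside 2.92%, 10.4%, 1.08%, 4.61% and 14.6% of all genes. Median log2 fold changes were -1.57, -1.43, -1.11, -1.09 and -2.50. These genes were called lower although Srebf1 itself was not called, as for Thrsp, a regulator of lipogenesis, at -2.05 (SE 0.297, adjusted p = 0.00107) for PE on CD and -1.57 (SE 0.283, adjusted p = 0.00816) for PE on MD. Acacb, an acetyl-CoA carboxylase, was -2.48 (SE 0.295, adjusted p = 0.000611) for PE on MD and -4.53 (SE 0.323, adjusted p = 1.08e-08) in MD + PE versus CD + Veh. Acss2 was -2.74 (SE 0.222, adjusted p = 2.37e-07) for MD under vehicle, and Pnpla3, a lipid droplet protein, was -3.08 (SE 0.518, adjusted p = 0.00286) for PE on CD. With the library division as covariate, calls for PE on CD dropped to 0 of the cholesterol and 5 of the fatty acid genes, and those for PE on MD to 4 and 4. Without replicate 1 of MD + Veh and replicate 2 of MD + PE, calls for PE on MD were 5 and 7, without all 5 libraries with high marker sums 5 and 6, and with the clock score as covariate 4 cholesterol genes were called for PE on CD.

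**Figure D5:**
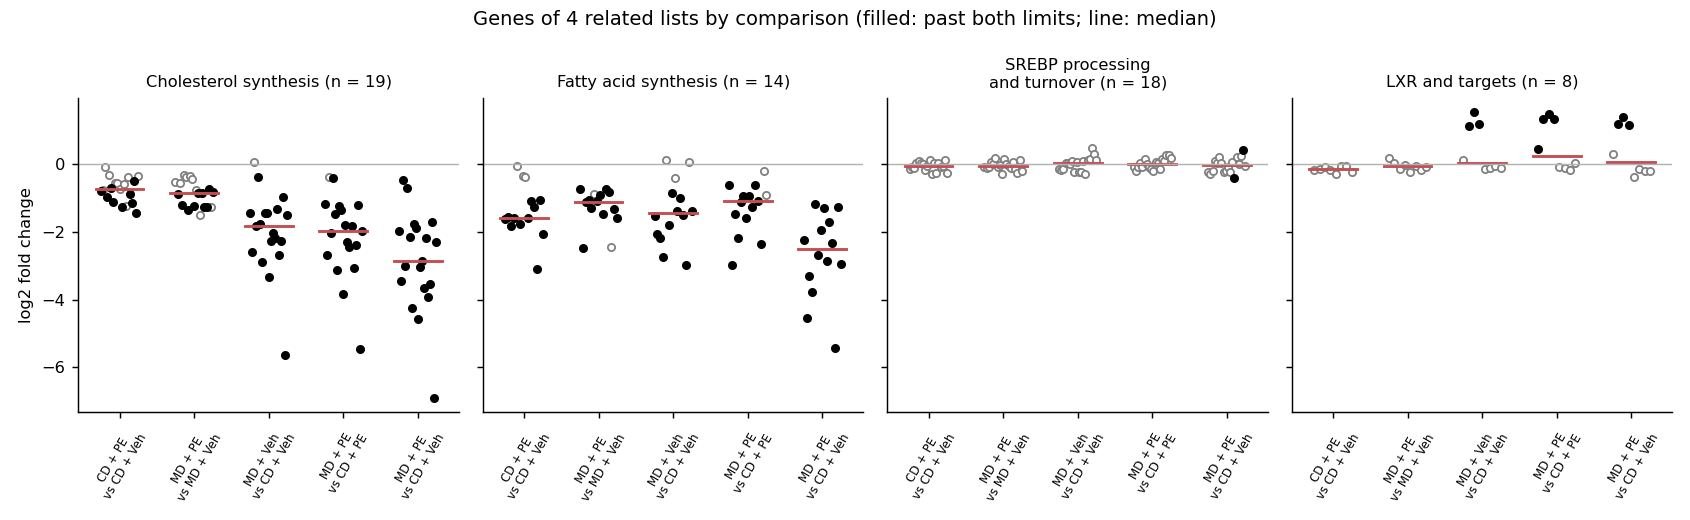
Log2 fold changes (vertical axis) of the genes of 4 lists in 5 comparisons; filled points pass both limits and lines are list medians. Medians of the cholesterol list lie between -0.74 and -2.87 and of the fatty acid list between -1.09 and -2.50. Those of the list of SREBP processing genes lie between -0.053 and 0.041, with single genes from -0.40 to 0.49.

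Of 18 genes for SREBP cleavage, transport and turnover, edgeR called 0 in 4 of the 5 comparisons (1 to 5 at an unadjusted p below 0.05, and 0 by DESeq2), where 1.08% to 10.4% of all genes were called. It called 2 (11.1%) in MD + PE versus CD + Veh, near the 14.6% of all genes called there. Those were Sar1b, a coat GTPase of vesicles leaving the endoplasmic reticulum (-0.40, adjusted p = 0.00114), and Ube2g2, a ubiquitin-conjugating enzyme (0.43, adjusted p = 0.0268). List medians lay between -0.053 and 0.041.

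LXR, its partner and further LXR targets gave 3 of 8 genes higher for MD under vehicle and 4 for MD under PE. In MD + PE versus CD + Veh there were 3, and none was called lower. These were 37.5%, 50.0% and 37.5% of the list beside 10.4%, 4.61% and 14.6% of all genes. List medians on the log2 scale were 0.047, 0.25 and 0.086 in that order, with the lowest gene at -0.13, -0.17 and -0.36. Abcg5 and Abcg8, the partners of the sterol exporter of the canalicular membrane, were 1.54 (SE 0.159, adjusted p = 2.88e-06) and 1.19 (SE 0.181, adjusted p = 0.000232) higher in log2 terms with MD under vehicle. For PE on CD and on MD edgeR and DESeq2 called 0 of the 8, with 2 and 1 genes at an unadjusted p below 0.05. Mylip, itself an LXR target, was not called by edgeR for MD under vehicle (0.26, adjusted p = 0.337), where Abcg5 and Abcg8 were. It was called higher in MD + PE versus CD + PE (0.70), where Abcg5 stood at 1.49 and Abcg8 at 1.34. Whether the Mylip differences go with LXR was not tested.

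Among 12 partners of LDL receptor uptake and turnover, the called genes were Lrpap1, a receptor chaperone, and Scarb1, the HDL receptor. Relative to CD + Veh, Lrpap1 was -0.43 in MD + Veh (adjusted p = 0.00697) and -0.49 in MD + PE (adjusted p = 0.00169), and Scarb1 was 0.43 in MD + PE (adjusted p = 0.00723). These calls made 8.33% and 16.7% of the list, near the 10.4% and 14.6% of all genes called in the same comparisons. In the other 3 comparisons edgeR and DESeq2 called 0 of them, with 0, 0 and 3 at an unadjusted p below 0.05. Of 12 further genes of sterol transport and esterification, Gramd1b, which carries cholesterol from the plasma membrane, was higher with MD under vehicle (2.29, SE 0.205, adjusted p = 6.82e-07), from 1.92 to 9.43 CPM. Soat2, which esterifies cholesterol (-0.54, adjusted p = 0.00583), and Npc1, a lysosomal cholesterol exporter (-0.45, adjusted p = 0.0196), were lower in that comparison. For PE, edgeR and DESeq2 called 0 of the 12 on either diet, with 1 at an unadjusted p below 0.05 on each, near the background of 2.92% and 1.08% of all genes. Of 7 tested genes of the insulin and feeding response, edgeR called 0 in any comparison between groups, beside 1.08% to 14.6% of all genes. For 7 genes a count of 0 lies near those shares, and whether feeding differed was not tested. There were 1 or 2 at an unadjusted p below 0.05 and at most 1 called by DESeq2.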

How the data were processed

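RNA-seq of 19 mouse livers was analysed. The authors trimmed reads with fastp 0.23.4, quantified stranded poly(A) libraries with Salmon 1.10.3 against the GENCODE GRCm39 transcriptome, whose release is not given in the sources used here, and used tximport for sums per gene. The deposited values are the authors' estimated counts per gene, whole numbers without normalization, and estimates for overlapping genes are uncertain (each member overlaps 1 to 4 annotated genes). Counts were tested in R 4.3.3 with edgeR 4.0.16 (TMM, filterByExpr by group, quasi-likelihood F test, 1 coefficient per group), and DESeq2 1.42.0 was an alternative. The SE is the log2 fold change divided by the square root of F. The limits of 0.05 and 0.38 follow the study's methods. Members, gene lists and tests were chosen with earlier results of these data known, and so are no independent evidence. All members are named in every comparison; for each list, up to 2 called genes with the largest rise or fall at 5 CPM or more in the higher group; and the 2 genes most like each member. Some genes these rules name are not reported here. Clock genes form the score only. Libraries of 1 group differed beyond counting error in all 36 pairs. The fit was also run on simulated counts that held no library division, cage or marker differences, so that run does not bear on these. Positions are from GENCODE vM39.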

Additional observations from a re-analysis of the deposited data

How the results depend on the processing

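Over 42 log2 fold changes (7 genes in 5 comparisons and the interaction), 1379 alternatives left 1317 with their direction and side of the limits, while 23 lost a call, 17 gained one and 22 changed sign, none of these a called value. The counts of genes called in MD + PE versus either CD group, of MD under vehicle and of the interaction stayed within 1.5 times the reported ones. In CD + PE versus CD + Veh the count of 2 was 1 with the library division and 1 with the clock score as covariate, and 1 to 3 over single libraries left out. In MD + PE versus MD + Veh the count of 2 was 1 with the library division, 1 without replicate 1 of MD + Veh and replicate 2 of MD + PE, 3 with DESeq2, 3 with the stricter filter, 3 with only the groups compared, and 1 to 4 over single libraries left out. Without the 5 libraries with high marker sums it was 0 by edgeR, with 4 genes at an unadjusted p below 0.05 (both sets left out were chosen after seeing the data). Changes of sign with the library division were 0.0023 for Srebf2 in CD + PE versus CD + Veh, 0.063 for Insig2 with PE on MD and 0.10 for the interaction in Stard4, which ran from -0.18 to 0.039 over single libraries left out. Srebf1 in MD + Veh versus CD + Veh was -0.038 with the clock score. Srebf1 in MD + PE versus CD + Veh, at -0.0046, was 0.014 with RLE normalization, 0.014 with DESeq2, 0.0091 with only the groups compared, 0.057 with the replicate block, 0.24 with the library division, 0.000806 when thinned to equal depth, 0.032 without those 5 libraries, 0.13 with the endothelial covariate (these 3 added after seeing the data), and -0.12 to 0.10 over single libraries left out. The cause of these moves was not tested.

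Groups share replicate numbers in the labels, so these were fitted as a block. Over 27 pairs of libraries sharing a number, residuals had a median correlation of 0.0293 and 6 exceeded 0.1, so the numbers were not taken to pair mice. The replicate block gave 7 genes instead of 6 in MD + PE versus CD + PE, adding Srebf1 (0.54, adjusted p = 0.0209), and left the other counts of called genes as they were. Mylip had the fewest counts of the 7 genes, 88 to 274 per library, and Srebf2 the next fewest, at least 293.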
